A study of Mus musculus with 30 samples.

Results

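The 8 genes described here encode transcription factors of the hepatocyte lineage, Hnf4a, Nr1h3, Nr5a2, Cebpa, Cebpb, Cebpd, Prox1 and Onecut2, and were chosen by name from the 49089 gene identifiers counted by RNA sequencing. All 8 were found and all 8 passed the filter on low counts, which left 11368 genes to be tested. The cells were AML12, an established mouse hepatocyte line derived from a mouse carrying a transforming growth factor alpha transgene. Every group received small interfering RNA (siRNA) and was starved of serum overnight, so the controls shared both treatments. Control cells were given a non-silencing siRNA, FoxK1 KD cells an siRNA against Foxk1, FoxK2 KD cells an siRNA against Foxk2, and DKD cells siRNA against both. Each genotype was collected in the basal state (0 nM insulin, labelled time 0) or after 6 h with 100 nM insulin. The protocol speaks of a mock treatment, and where basal cells were not kept for the same 6 h, insulin and further culture cannot be told apart. The 8 groups held 4 samples each, except Control insulin and DKD insulin with 3, which gave 30 samples. The comparisons address how loss of the forkhead factors FoxK1 and FoxK2 altered these genes before and after insulin. Knockdown was transient and partial, a single cell line was used, and no label states that replicates were separate cultures, so p-values measure the spread between these samples, which may be technical.

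Hepatocyte identity is kept by transcription factors that bind each other's genes and the genes of plasma proteins, lipoproteins and metabolic enzymes. HNF4A is the nuclear receptor most closely tied to the differentiated hepatocyte, LXRα (Nr1h3) responds to oxysterols and drives lipogenic and cholesterol efflux genes, and LRH-1 (Nr5a2) acts on bile acid and cholesterol metabolism and on the cell cycle. C/EBPα is a basic leucine zipper factor of the quiescent, differentiated liver, while C/EBPβ and C/EBPδ are induced in the acute phase and in proliferation. PROX1 and ONECUT2 are homeobox factors that act in early liver development, PROX1 also as a corepressor of HNF4A and LRH-1. Forkhead proteins such as FoxK1 and FoxK2 bind a core usually written TAAACA.

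Promoter sequences bear on this because the silenced proteins bind DNA, and they are shown for 4 members that differ in the letters they hold. RefSeq promoters (GRCm38.p6, 250 bases before to 50 after a start site) were matched for 6 of the 8 members, 10 promoters in all. They are written 5′ to 3′ on the gene's strand, and capitals mark the letters searched for, on either strand.
Hnf4a, chr2:163506607-163506906, + strand: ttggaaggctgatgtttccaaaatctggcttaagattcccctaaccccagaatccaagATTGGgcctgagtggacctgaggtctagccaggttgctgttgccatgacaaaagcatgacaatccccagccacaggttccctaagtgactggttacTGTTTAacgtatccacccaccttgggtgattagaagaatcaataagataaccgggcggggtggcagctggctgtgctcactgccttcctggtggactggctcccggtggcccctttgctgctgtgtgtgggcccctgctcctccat
Prox1, chr1:190169466-190169765, − strand: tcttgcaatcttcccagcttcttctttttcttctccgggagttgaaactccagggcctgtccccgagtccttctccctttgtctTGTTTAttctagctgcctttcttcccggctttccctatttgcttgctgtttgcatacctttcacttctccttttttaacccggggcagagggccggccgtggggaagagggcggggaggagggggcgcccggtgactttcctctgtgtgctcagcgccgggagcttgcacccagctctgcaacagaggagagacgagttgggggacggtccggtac
Nr5a2, chr1:136953581-136953880, − strand: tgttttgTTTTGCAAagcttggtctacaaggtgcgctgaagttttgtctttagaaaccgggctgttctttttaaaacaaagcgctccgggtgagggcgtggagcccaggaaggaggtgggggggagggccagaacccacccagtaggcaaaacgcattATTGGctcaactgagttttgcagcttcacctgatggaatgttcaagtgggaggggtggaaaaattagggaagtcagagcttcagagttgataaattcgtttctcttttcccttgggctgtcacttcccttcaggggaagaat
Cebpa, chr7:35119043-35119342, + strand: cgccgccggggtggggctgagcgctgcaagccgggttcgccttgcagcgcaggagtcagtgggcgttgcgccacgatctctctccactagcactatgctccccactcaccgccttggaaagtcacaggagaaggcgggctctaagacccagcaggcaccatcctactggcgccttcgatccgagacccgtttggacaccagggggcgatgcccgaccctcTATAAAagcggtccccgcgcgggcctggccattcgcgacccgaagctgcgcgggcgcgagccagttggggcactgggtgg

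The forkhead core TAAACA was found on the opposite strand, where it reads TGTTTA, in 2 of the 10 promoters. These were the Hnf4a promoter shown, at −96 from the start, and the Prox1 promoter shown, at −166. Hnf4a and Prox1 each had another promoter among the 10, without the core. Of 32851 promoters of the same length, 13.4% held the core on either strand. The paper proposes a longer FoxK motif, in which A or T and then G or A stand before the core. Read on the core's strand, these letters were AA in the Prox1 promoter and GT in the Hnf4a one. The Prox1 match thus had both letters of the longer motif and the Hnf4a match neither. The C/EBP core TTGCNNAA stood on the opposite strand at −243 in the Nr5a2 promoter shown, and 10.8% of all promoters held it. The capitals ATTGG in the Hnf4a and Nr5a2 promoters are a CCAAT box read on the opposite strand (37.4% of all promoters), and TATAAA in the Cebpa promoter lay at −30 (13.6%). TAAATA, AAAGTCCA, CAAGGTCA and a DR4 element were in none of the 10. A match is a description of letters, and binding was not measured here.

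Deposited gene counts summed to 2141460 to 5668270 per sample, with group medians between 2656166 and 4440783. In the basal state the knockdowns left 45.2% of the Control level of Foxk1 in FoxK1 KD samples and 57.1% in DKD. They left 33.7% of that of Foxk2 in FoxK2 KD and 35.8% in DKD. With insulin, against Control insulin, these were 58.2% and 64.6% for Foxk1 and 40.4% and 39.5% for Foxk2. Basal FoxK1 KD samples also held less Foxk2, 83.4% of Control. Foxk1 was lower in Control insulin than in Control basal, by a log2 difference of −0.62. Of the 20 hepatocyte markers found, 9 passed the filter, with Apob at 253 to 819 CPM (counts scaled to a common library size) and Krt18 at 812 to 1668, whereas Alb reached only 2.50 to 65.2. Biliary markers were also present, Spp1 at 790 to 2045 CPM and Krt19 at 323 to 753, while Epcam was at 0 in all 30 samples. Leukocyte markers summed to 4.09 to 22.1 CPM, with Adgre1 and Cd3e at 0 throughout, endothelial markers to 17.8 to 38.9, and of the mesenchymal list only Vim passed the filter. Control basal replicate 1 was the highest of its group for Nr1h3, Cebpa and Cebpd and the lowest for Hnf4a, Prox1 and Onecut2. Dixon's test, given at the end, flagged none of these values. FoxK2 KD basal replicate 2 held most adult liver transcripts: its Alb was 65.2 CPM against 2.50 to 24.4 in the other 29 samples. Values without either library are given beside the results that they change most.

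Levels of the members spanned more than an order of magnitude per kilobase of exon. Hnf4a was the highest at a mean of 27.8 CPM per kb over the 30 samples (18.6 to 31.4), followed by Cebpb at 17.9 (11.8 to 23.0) and Nr1h3 at 16.8 (8.27 to 21.1), whose ranges overlapped. Cebpd followed at 10.1 (4.23 to 18.2) and Onecut2 at 5.07 (3.58 to 7.01). Prox1 at 4.15 (2.37 to 5.89) and Cebpa at 4.09 (2.52 to 6.84) lay within each other's spread. Nr5a2 was the lowest at 1.16 (0.598 to 2.01), below every sample of every other member. In counts, Hnf4a had 308 to 710 per sample, whereas Cebpa had 18 to 70 and Nr5a2 11 to 47, so that differences of these last genes carry a wider counting error.

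**Figure D1:**
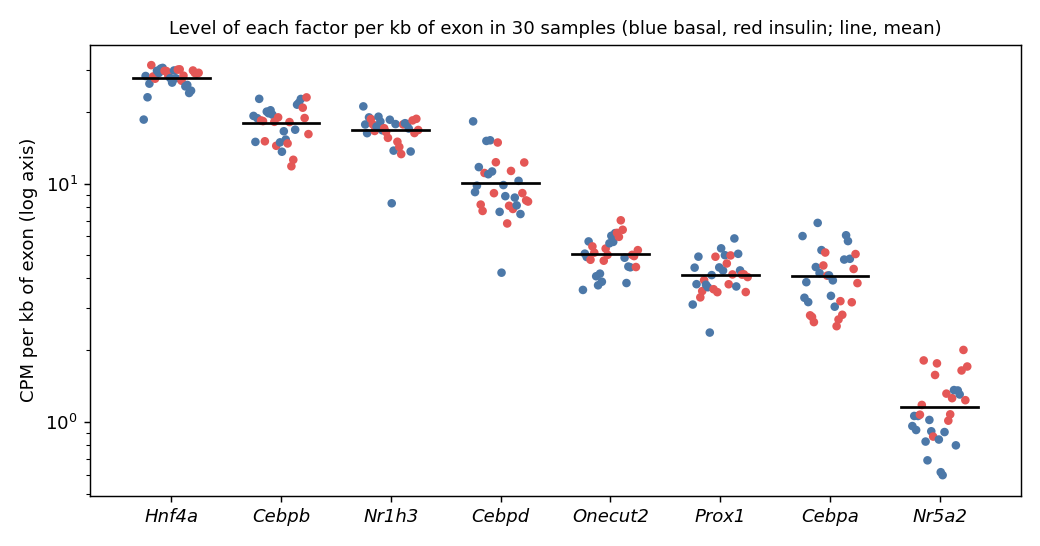
CPM per kb of exon of the 8 members in each of the 30 samples, on a log axis, ordered by mean. Hnf4a has the highest mean, at 27.8, with a range that overlaps those of Cebpb and Nr1h3. Nr5a2 has the lowest, at 1.16, and the other 6 means lie between 4.09 and 17.9. The ranges of Cebpb and Nr1h3 lie above those of Onecut2, Prox1 and Cebpa.

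Variation of a member between groups was small beside the difference between members. The ratio of the highest to the lowest group mean was 1.25 for Hnf4a, 1.27 for Nr1h3, 1.37 for Prox1, 1.45 for Cebpb, 1.61 for Onecut2, 1.72 for Cebpd, 1.97 for Cebpa and 2.22 for Nr5a2. The biological coefficient of variation estimated by edgeR ran from 0.073 for Hnf4a to 0.184 for Cebpd. Over the 13 planned comparisons, edgeR's two-sided quasi-likelihood test called 6 of 104 member tests at a false discovery rate (FDR) below 0.05, which is 5.77% beside 10.6% of all gene tests, 4 of them higher and 2 lower. The largest difference among the 104 was 0.73 on the log2 scale. In bulk RNA a lower value from fewer expressing cells cannot be told apart from less RNA per cell.

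**Figure D2:**
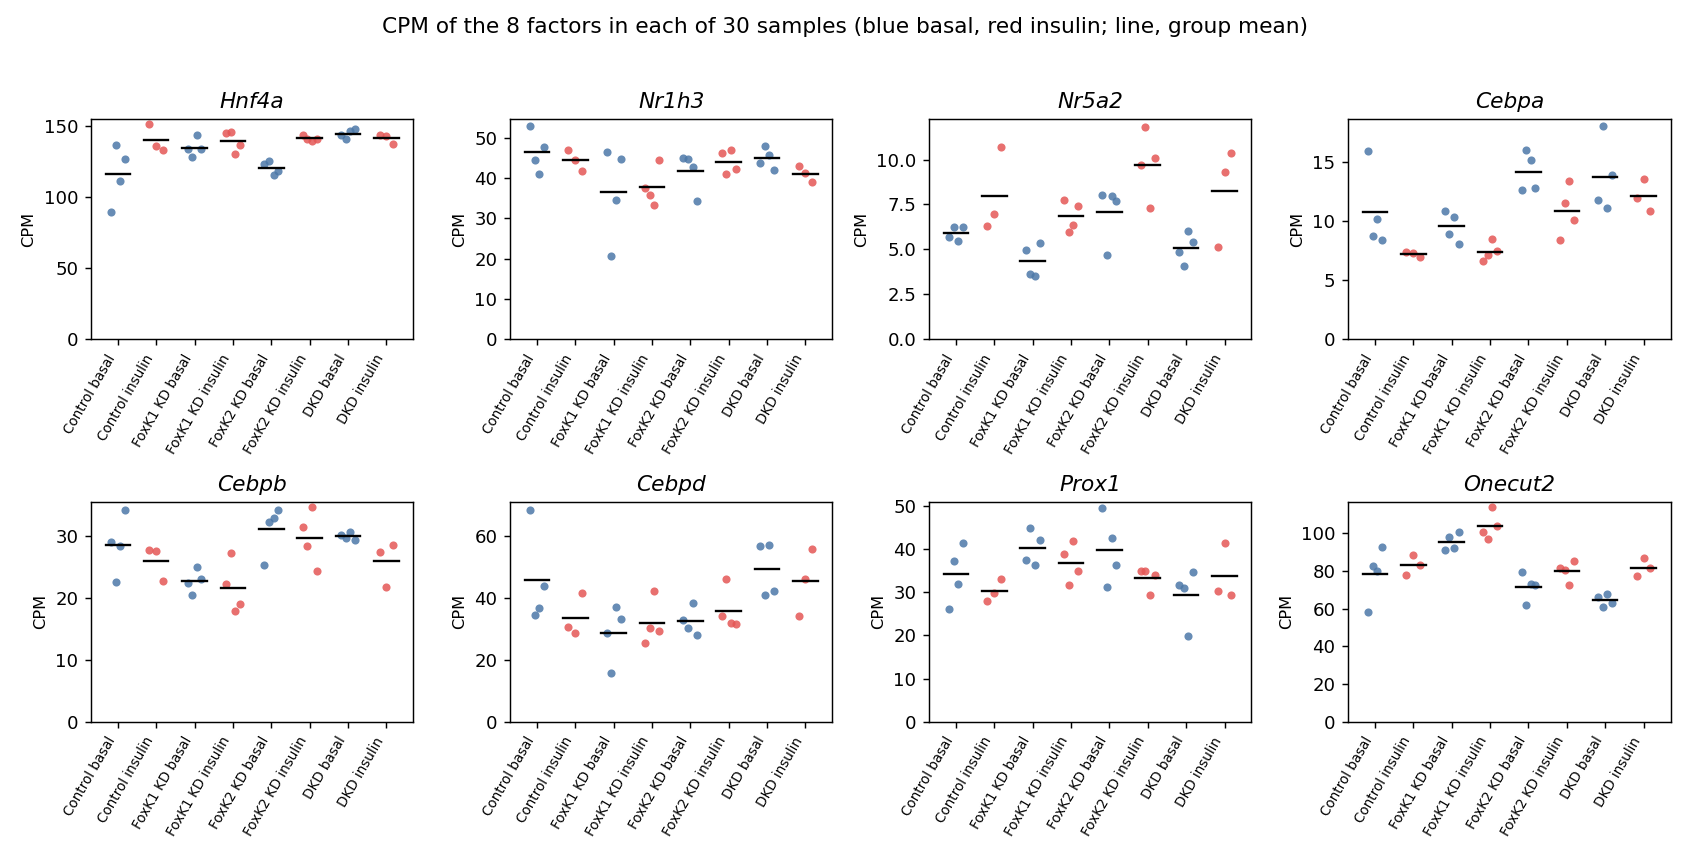
CPM of each member in each sample, by group, with a line at the group mean and a linear axis for each gene. Hnf4a sits at 89.6 to 137 in Control basal and 140.5 to 148 in DKD basal, and Nr5a2 and Cebpa sit at 3.53 to 11.8 and 6.65 to 18.03 over all samples.

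Knockdown in the basal state changed few members, and each of the 3 calls fell on a different gene: Cebpd was lower in FoxK1 KD cells, Hnf4a higher in DKD cells and Onecut2 lower in DKD cells. FoxK1 KD called 1 of 8 members (8.09% of all genes tested), FoxK2 KD 0 of 8 (0.378%) and DKD 2 of 8 (21.1%), so that the members were called about as often as other genes. In FoxK2 KD cells 2 members were under an unadjusted p of 0.05, the smallest FDR was 0.308, limma-voom and DESeq2 called 0 as well, and 0 of 8 separated from Control (4.67% of all genes did). The median member difference was −0.23 in FoxK1 KD, 0.09 in FoxK2 KD and 0.00 in DKD, beside all-gene medians of −0.01, −0.01 and 0.00. Over the 11368 genes, 52 were lower and 83 higher in all 12 Control, FoxK1 KD and FoxK2 KD basal samples than in the other 18. No member split in this way. The 18 hold DKD basal and all insulin samples. A difference between these sets of libraries cannot be told apart from DKD in the basal state, or from insulin in the other genotypes.

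Among the nuclear receptors, Hnf4a (chr2:163506808-163572910, + strand, GRCm38) read 89.6, 137, 111 and 127 CPM in the 4 Control basal samples and 144, 140.5, 147 and 148 in the DKD basal samples. All 4 DKD samples lay above all 4 Control samples, a separation seen in 18.4% of all genes. The fitted difference was 0.31 on the log2 scale (SE 0.08, 95% interval 0.14 to 0.48, FDR = 0.00685), a 1.24-fold higher level. FoxK1 KD basal samples read 134, 128, 144 and 134 CPM and FoxK2 KD basal samples 123, 125, 116 and 118, differences of 0.21 (FDR = 0.104) and 0.05 (FDR = 0.864). That of FoxK1 KD was 0.12 without Control basal replicate 1. The counts do not separate Hnf4a transcripts from its P1 and P2 promoters.

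The DKD call for Hnf4a held in all 8 fits that each left out a library, with differences of 0.21 to 0.40. It was lost at 0.31 (FDR = 0.0995) with only the groups compared and at 0.19 (FDR = 0.155) when each sample's trend of expression on GC content and length was taken out, and differences in this comparison ran with exon GC content across genes (Spearman's rho 0.47, over genes of the same libraries).

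Some cell type markers were called with basal knockdown too, beside 8.09% of all genes in FoxK1 KD and 21.1% in DKD. In DKD cells the 20 hepatocyte markers summed to 2670 to 2753 CPM against 2033 to 2628 in Control, a sum made mostly of Krt8, Krt18 and Apob, and of the 9 tested 3 were higher, among them Serpina1a (1.09, FDR = 1.05e-06), whose near-identical copies make its counts uncertain, and 0 lower. Leukocyte markers summed to 17.9 to 22.1 CPM in FoxK1 KD and 15.7 to 18.2 in DKD against 8.22 to 12.9 in Control, and Csf1r, the 1 leukocyte marker tested, was higher in both (1.01, FDR = 0.000143, and 0.79, FDR = 0.00103). Endothelial markers summed to 28.5 to 38.9 CPM in DKD against 22.5 to 27.3 in Control, nearly all from Flt4 (0.39, FDR = 0.042), which did not pass without Control basal replicate 1. Of the 6 biliary markers tested, FoxK1 KD had 0 higher and 2 lower and DKD 1 and 2. The part of these markers in the members' differences was not tested.

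Nr1h3 (chr2:91184061-91202834, − strand) averaged 46.5 ± 5.13 CPM (SD, n = 4) in Control basal, 36.7 ± 11.8 in FoxK1 KD, 41.7 ± 5.05 in FoxK2 KD and 44.9 ± 2.57 in DKD cells. Values in FoxK1 KD were 46.6, 20.8, 34.6 and 44.7 CPM, so the lower mean came from replicates 2 and 3, and the groups overlapped. None of its 3 basal differences passed, at −0.32 (FDR = 0.138), −0.16 (FDR = 0.699) and −0.05 (FDR = 0.82). Nr5a2 (chr1:136842571-136960448, − strand) read 5.67, 6.25, 5.46 and 6.25 CPM in Control basal and 4.98, 3.63, 3.53 and 5.35 in FoxK1 KD. Every FoxK1 KD sample was below every Control sample, as for 9.98% of all genes, yet the difference of −0.43 (SE 0.24) had an FDR of 0.283.

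In FoxK2 KD basal samples Nr5a2 read 8.03, 4.71, 7.997 and 7.69 CPM, and in DKD basal samples 4.88, 4.07, 6.02 and 5.39. FoxK2 KD replicates 1, 3 and 4 lay above all Control samples and replicate 2, the library with most Alb, lay below them. The differences were 0.25 (FDR = 0.705), or 0.41 (FDR = 0.571) without that library, and −0.24 in DKD (FDR = 0.523).

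Of the C/EBP genes, Cebpd (chr16:15887286-15891031, + strand) read 68.3, 34.5, 36.7 and 43.9 CPM in Control basal and 28.5, 15.8, 36.9 and 33.2 in FoxK1 KD basal. The groups overlapped, with Control replicate 1 the highest and FoxK1 KD replicate 2 the lowest of the 8. The difference was −0.65 (SE 0.20, 95% interval −1.06 to −0.24, FDR = 0.0411), a 1.57-fold lower level. Without Control basal replicate 1 it was −0.40 (FDR = 0.265) and without FoxK1 KD basal replicate 2 it was −0.46 (FDR = 0.175), and it was also lost without FoxK1 KD basal replicate 1 or replicate 4.

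Cebpd averaged 32.4 ± 4.52 CPM in FoxK2 KD basal and 49.2 ± 8.78 in DKD basal cells, differences of −0.49 (FDR = 0.308) and 0.10 (FDR = 0.768). These became −0.25 (FDR = 0.741) and 0.32 (FDR = 0.184) without Control basal replicate 1. Its exons overlap those of Spidr on the opposite strand, which had 5032 counts summed over the 30 samples against 4099 for Cebpd. Those of Cebpb overlap Tmem189, with sums of 1618 for Tmem189 and 2986 for Cebpb. Whether counting used strand is not given in the sources used here, so the levels of Cebpd and Cebpb are uncertain to that extent.

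Cebpa (chr7:35119293-35121928, + strand) read 15.9, 8.75, 10.2 and 8.39 CPM in Control basal, 10.9, 8.91, 10.4 and 8.03 in FoxK1 KD, 12.7, 16.0, 15.1 and 12.7 in FoxK2 KD and 11.8, 18.03, 11.1 and 13.9 in DKD basal samples. Control replicate 1 lay among the FoxK2 KD and DKD values, and the other 3 Control samples lay below all 8 of them. Differences were −0.14 (FDR = 0.699), 0.42 (SE 0.17, FDR = 0.324) and 0.39 (SE 0.18, FDR = 0.122). Without Control basal replicate 1 the DKD difference was 0.61 and passed (FDR = 0.00873), while that of FoxK2 KD was 0.65 and did not (FDR = 0.0971).

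Cebpb (chr2:167688915-167690418, + strand) read 28.9, 22.5, 28.3 and 34.1 CPM in Control basal and 22.4, 20.5, 24.9 and 23.0 in FoxK1 KD basal. It averaged 31.1 ± 3.94 in FoxK2 KD and 29.9 ± 0.554 in DKD cells. The differences of −0.33 (FDR = 0.116), 0.13 (FDR = 0.759) and 0.06 (FDR = 0.789) did not pass. The counts do not separate the LAP and LIP proteins made from the Cebpb transcript.

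The homeobox gene Onecut2 read 58.1, 82.5, 79.9 and 92.9 CPM in Control basal, 91.2, 98.0, 92.5 and 101 in FoxK1 KD, 79.3, 62.1, 72.8 and 72.3 in FoxK2 KD and 66.3, 60.8, 68.0 and 62.9 in DKD basal samples. FoxK1 KD values lay around or above the highest Control sample, and DKD values lay between Control replicate 1 and the other 3 Control samples. Onecut2 was lower in DKD cells by a fitted −0.29 (SE 0.10, 95% interval −0.50 to −0.09, FDR = 0.034), 1.22-fold. The FoxK1 KD difference was 0.28 (SE 0.10, FDR = 0.0679), or 0.17 (FDR = 0.304) without Control basal replicate 1, 0.37 (FDR = 0.0137) without replicate 4 and 0.12 (FDR = 0.317) with the GC and length correction. That of FoxK2 KD was −0.14 (FDR = 0.626), or −0.25 (FDR = 0.261) without Control basal replicate 1.

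The DKD call for Onecut2 was kept without Control basal replicate 1, at −0.41 (FDR = 0.000575), and without DKD basal replicate 3, and lost without any other of the 8 libraries, with −0.20 (FDR = 0.189) the smallest difference, without Control basal replicate 4. With the correction for GC content and length it was −0.12 (FDR = 0.314). Prox1 (chr1:190118035-190170714, − strand) averaged 34.1 ± 6.67 CPM in Control basal, 40.1 ± 4.05 in FoxK1 KD, 39.8 ± 7.93 in FoxK2 KD and 29.2 ± 6.45 in DKD cells. The groups overlapped and no difference passed, at 0.21 (FDR = 0.383), 0.20 (FDR = 0.637) and −0.21 (FDR = 0.349). DKD basal replicate 3, at 19.9 CPM, lay well below the 30.8 to 34.7 of its group, and the DKD difference was −0.10 without it.

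**Figure D3:**
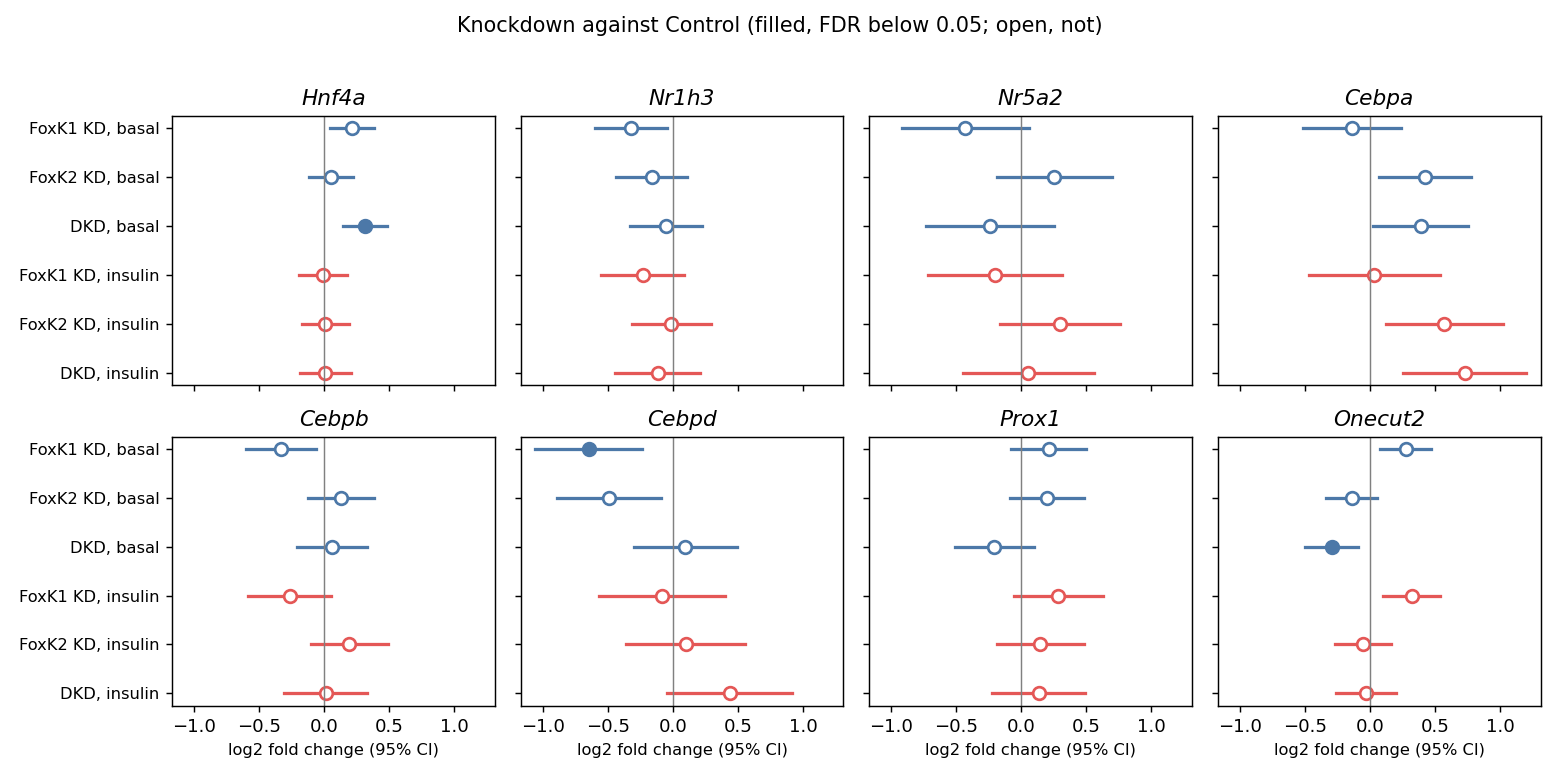
Log2 fold difference of each member between knockdown and Control cells, basal and with insulin, with 95% intervals from edgeR's fit. Cebpd in FoxK1 KD basal (−0.65), Hnf4a in DKD basal (0.31) and Onecut2 in DKD basal (−0.29) passed the FDR threshold, and with insulin no member did.

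Insulin for 6 h moved members by less than 1 log2 unit in each genotype. Hnf4a was higher in Control and FoxK2 KD cells and Onecut2 was higher in DKD cells. Members called were 1 of 8 in Control (25.4% of all genes), 0 of 8 in FoxK1 KD (31.6%), 1 of 8 in FoxK2 KD (28.1%) and 1 of 8 in DKD cells (16.3%). With only 8 members, 1 call more or less changes such a share strongly. In FoxK1 KD cells 1 member had an unadjusted p under 0.05, the smallest FDR was 0.0527, and DESeq2 and limma-voom called 0. Markers of other cell types moved with insulin as well. In Control cells the 9 biliary markers summed to 1857 to 2315 CPM in basal and 2158 to 2692 in insulin samples, ranges that overlap and are carried by Spp1, and of the 6 tested 1 was higher (Spp1) and 2 lower. The 8 leukocyte markers, of which only Csf1r passed the filter, summed to 8.22 to 12.9 and 4.09 to 6.59, and the 8 endothelial markers to 22.5 to 27.3 and 30.3 to 31.8, with Flt4, the 1 tested, not called. Of the 9 hepatocyte markers tested 2 were higher and 2 lower. Their part in the members' differences was not tested.

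With insulin Hnf4a read 152, 136 and 133 CPM in Control, 145, 146, 130.4 and 137 in FoxK1 KD, 144, 141, 139.5 and 141 in FoxK2 KD and 143, 143 and 137 in DKD cells. Insulin samples of all 4 genotypes thus lay between 130.4 and 152, with group means from 139.5 in FoxK1 KD to 141 in DKD. Basal samples lay between 89.6 and 148, with group means from 116 in Control to 145 in DKD. The lowest basal values, 89.6 and 111, were those of Control replicates 1 and 3. The insulin difference was 0.27 in Control (SE 0.09, 95% interval 0.09 to 0.45, FDR = 0.025, groups overlapping) and 0.23 in FoxK2 KD (SE 0.08, 95% interval 0.06 to 0.40, FDR = 0.0385, groups not overlapping, as for 30% of all genes). It was 0.05 in FoxK1 KD (FDR = 0.696) and −0.03 in DKD (FDR = 0.843).

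The Control insulin call for Hnf4a was lost without Control basal replicate 1, at 0.17 (FDR = 0.0994), or replicate 3, without Control insulin replicate 1, with the GC and length correction, at 0.23 (FDR = 0.0711), with every gene of 1 count, at 0.25 (FDR = 0.111), and with only the groups compared, at 0.28 (FDR = 0.24). The FoxK2 KD call was lost with that correction, at 0.13 (FDR = 0.269), with every gene of 1 count, at 0.21 (FDR = 0.171), and without any 1 of its 8 libraries, where the difference stayed between 0.21 and 0.24.

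Nr5a2 read 6.33, 6.95 and 10.7 CPM in Control insulin, 7.76, 5.97, 6.35 and 7.42 in FoxK1 KD, 9.70, 11.8, 7.28 and 10.1 in FoxK2 KD and 5.12, 9.29 and 10.4 in DKD insulin samples. In Control and FoxK1 KD cells every insulin sample was above every basal sample, which held for 25% and 31.9% of all genes. Its insulin differences were 0.42 (FDR = 0.211), 0.64 (FDR = 0.0527), 0.46 (FDR = 0.0929) and 0.71 (FDR = 0.0503) for Control, the FoxK1 KD, the FoxK2 KD and the DKD. All 4 were positive and none passed. Nr1h3 ranged from 33.4 to 47.0 CPM with insulin, and its differences from basal, between −0.12 and 0.09, did not pass in any genotype.

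Cebpa read 7.38, 7.27 and 6.92 CPM in Control insulin, 6.65, 7.09, 8.47 and 7.42 in FoxK1 KD, 8.38, 11.6, 13.3 and 10.1 in FoxK2 KD and 11.95, 13.5 and 10.8 in DKD insulin samples. The Control insulin samples were all below the basal ones, a separation seen in 25% of all genes. The 3 DKD insulin samples lay above all Control insulin samples, a separation seen in 17.2% of all genes. They also lay above the FoxK1 KD insulin samples, for which no share over all genes was computed. Insulin differences of −0.55 (SE 0.22, FDR = 0.06), −0.38 (FDR = 0.183), −0.40 (FDR = 0.0872) and −0.21 (FDR = 0.501) in the same order of genotypes were all negative and none passed. Without Control basal replicate 1 the Control difference was −0.33 (FDR = 0.268).

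Cebpb with insulin ranged from 17.8 to 34.6 CPM over the insulin samples and Cebpd from 25.5 to 55.7. Cebpb differences ran from −0.19 to −0.08 and those of Cebpd from −0.44 in Control, or −0.20 without Control basal replicate 1, to 0.15, and none passed. DKD insulin samples of Cebpb, at 27.3, 21.7 and 28.5 CPM, all lay below the 29.3 to 30.5 of DKD basal samples, as for 28.7% of all genes. Prox1 averaged 30.2 ± 2.57 CPM in Control insulin, 36.8 ± 4.45 in FoxK1 KD, 33.3 ± 2.62 in FoxK2 KD and 33.7 ± 6.70 in DKD insulin cells, with differences from basal of −0.25 to 0.15 that did not pass.

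Onecut2 read 77.8, 88.5 and 83.3 CPM in Control insulin, 101, 97.1, 114 and 104 in FoxK1 KD, 81.6, 80.6, 72.5 and 85.4 in FoxK2 KD and 77.1, 86.7 and 81.6 in DKD insulin samples. The DKD insulin samples all lay above the DKD basal ones, a separation seen in 28.7% of all genes. FoxK1 KD insulin samples lay above those of Control insulin, a separation seen in 16% of all genes. They also lay above the FoxK2 KD and DKD insulin samples, for which no share over all genes was computed. The DKD difference of 0.34 (SE 0.11, 95% interval 0.12 to 0.56, FDR = 0.0278) was a 1.27-fold rise, while the others were 0.08 (FDR = 0.644) in Control, 0.12 (FDR = 0.366) in FoxK1 KD and 0.16 (FDR = 0.227) in FoxK2 KD cells. The DKD call was kept under 9 of 9 alternative settings and lost in 5 of 7 fits that left out a library (DKD basal replicates 1, 2 and 4 and DKD insulin replicates 2 and 3), where the difference stayed between 0.30 and 0.38.

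**Figure D4:**
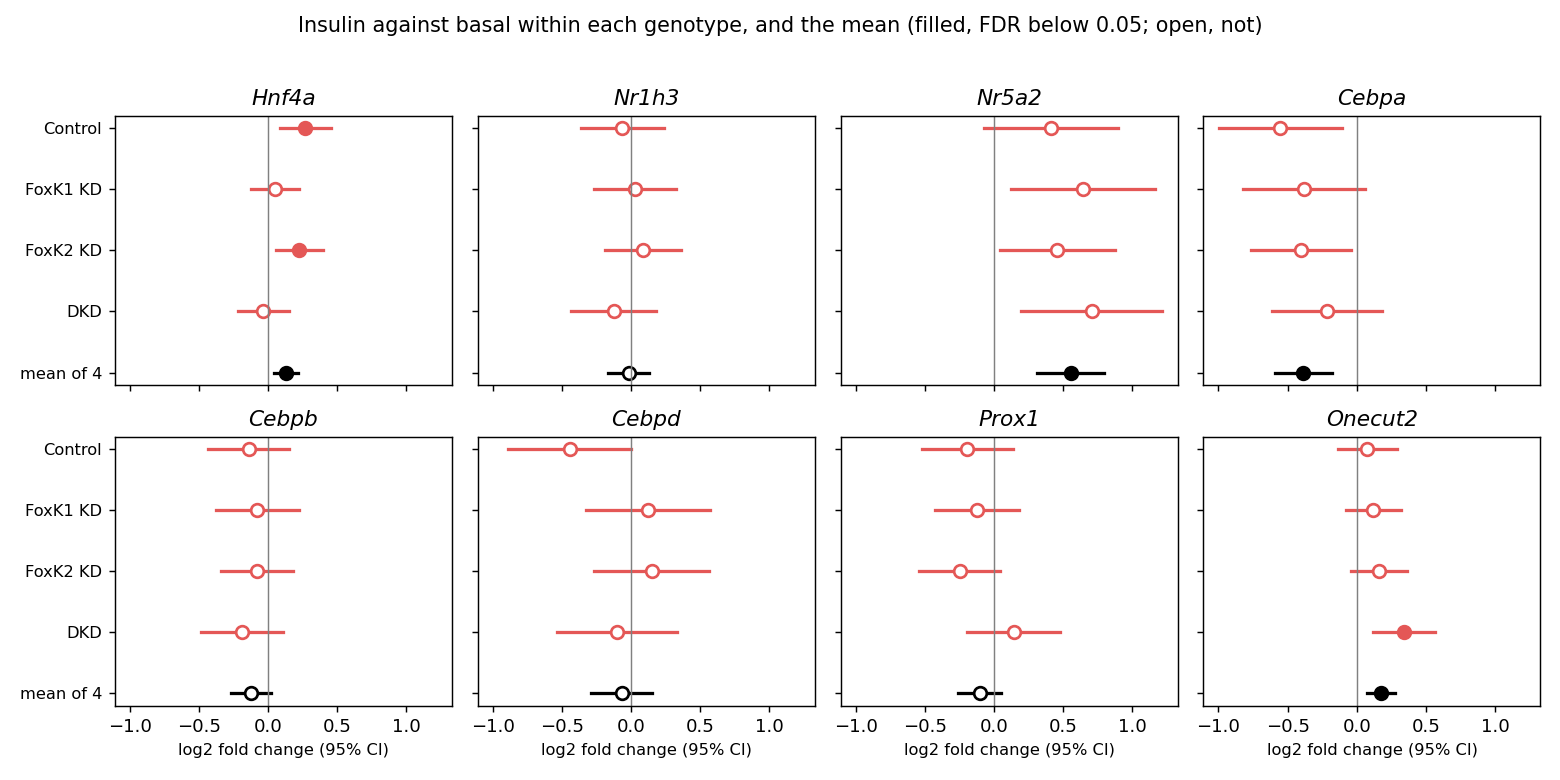
Log2 fold difference of each member between insulin and basal samples in the 4 genotypes and their mean, with 95% intervals from edgeR's fit. The mean over genotypes, added after the data were seen, passed for Nr5a2 (0.56), Cebpa (−0.39), Onecut2 (0.18) and Hnf4a (0.13).

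Knockdown with insulin present called no member: 0 of 8 in FoxK1 KD (3.59% of all genes), 0 of 8 in FoxK2 KD (0.0264%) and 0 of 8 in DKD (1.21%). In each of the 3 comparisons 1 member was under an unadjusted p of 0.05, and DESeq2 and limma-voom called 0. These were Onecut2 in FoxK1 KD at 0.32 (SE 0.11, FDR = 0.091), and Cebpa in FoxK2 KD at 0.57 (SE 0.22, FDR = 0.733) and in DKD at 0.73 (SE 0.23, 95% interval 0.26 to 1.20, FDR = 0.126). In all 3 cases the knockdown and Control samples did not overlap, as for 16%, 7.27% and 17.2% of all genes. Hnf4a differed from Control insulin by −0.01, 0.01 and 0.01 in FoxK1 KD, FoxK2 KD and DKD cells.

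No insulin effect of a member passed a test of its difference between a knockdown and Control (0 of 8 in each, with 0%, 0% and 1.54% of all genes called). Members under an unadjusted p of 0.05 were 0, 0 and 1, and DESeq2 and limma-voom called none. The 1 member was Hnf4a in DKD cells, with an insulin effect lower than in Control by a fitted −0.30 (95% interval −0.56 to −0.05, FDR = 0.239). For Cebpd the difference was 0.56 in FoxK1 KD, 0.59 in FoxK2 KD and 0.34 in DKD, and none passed. They were 0.31, 0.35 and 0.10 without Control basal replicate 1, the highest Control basal sample for Cebpd.

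Averages over genotypes or over states were added after the data were seen, since several members moved the same way in each genotype. Hnf4a was not among these, at −0.03 with insulin in DKD cells. The FDRs of the averages come from the data that prompted them, and refits reuse the same libraries. Averaged over the 4 genotypes, insulin called 4 of 8 members beside 53.3% of all genes. Nr5a2 was higher by 0.56 (SE 0.12, 95% interval 0.31 to 0.80, FDR = 0.000194), a 1.47-fold level, Onecut2 by 0.18 (SE 0.05, FDR = 0.00445) and Hnf4a by 0.13 (SE 0.04, FDR = 0.0135). Cebpa was lower by a fitted −0.39 (SE 0.10, 95% interval −0.59 to −0.18, FDR = 0.00163), 1.31-fold. The Nr5a2, Cebpa and Onecut2 calls held under 9 of 9 alternatives and in 30 of 30 fits that left out a library, whereas Hnf4a was 0.07 (FDR = 0.198) with the GC and length correction and 0.11 (FDR = 0.0907) with every gene of 1 count. Nr1h3, Cebpb, Cebpd and Prox1, at −0.02, −0.12, −0.07 and −0.10, did not pass.

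Averaged over basal and insulin states, FoxK1 KD called 1 of 8 members (10.8% of all genes), Onecut2, which was higher by 0.30 (SE 0.07, 95% interval 0.15 to 0.45, FDR = 0.0055). This call held under 9 of 9 alternatives and in 15 of 15 fits without a library. Cebpb at −0.30 (FDR = 0.0567) and Nr1h3 at −0.28 (FDR = 0.0824) did not pass. FoxK2 KD called 0 of 8 (0.475%), with Cebpa the 1 member under an unadjusted p of 0.05, at 0.50 (SE 0.14, FDR = 0.105) and 0.61 (FDR = 0.0134) without Control basal replicate 1. DKD called 1 of 8 (17.2%), Cebpa, higher by 0.56 (SE 0.15, 95% interval 0.26 to 0.86, FDR = 0.0076), 1.47-fold. The Cebpa call held in 14 of 14 fits without a library and was 0.39 (FDR = 0.0604) with the GC and length correction. The DKD averages of Cebpd, at 0.38 (FDR = 0.0397), and Onecut2, at −0.22 (FDR = 0.00937), also passed without Control basal replicate 1.

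At the threshold of the study, an FDR below 0.25 with a fold above 1.5 where insulin was tested, basal knockdown called 5 of 8 members in FoxK1 KD (26.6% of all genes), 0 in FoxK2 KD (3.59%) and 3 in DKD (43.6%). Insulin called 0 in Control (12%), 1 in FoxK1 KD (12.9%), 0 in FoxK2 KD (10.7%) and 1 in DKD (8.49%), in both cases Nr5a2. Knockdown with insulin called 1 in FoxK1 KD (15.1%), Onecut2, 0 in FoxK2 KD (0.238%) and 1 in DKD (6.66%), Cebpa. Differences of insulin effects called 0 in each (1.55%, 0% and 4.04%), and the averages called 0 for insulin (7.79%), 5 for FoxK1 KD (29.5%), 1 for FoxK2 KD (3.42%) and 4 for DKD (39%).

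GC content moved with several of these results. Exon GC content was 67.2% in Cebpb, 62.6% in Cebpa, 56.8% in Nr1h3, 53.7% in Hnf4a, 51.6% in Cebpd, 45.3% in Prox1, 43.2% in Nr5a2 and 42.6% in Onecut2, and the rank correlation of log2 differences with GC content across genes was 0.47 in DKD basal, 0.33 in FoxK1 KD insulin, 0.24 in FoxK2 KD insulin, −0.21 in DKD insulin and −0.22 in FoxK1 KD basal comparisons. In FoxK1 KD basal cells the correction took Cebpb from −0.33 to −0.08 and left the Cebpd call, at −0.59 (FDR = 0.0475). With the correction, the insulin differences in FoxK1 KD cells passed for Nr5a2 at 0.74 (FDR = 0.024), Cebpa at −0.59 (FDR = 0.0294) and Onecut2 at 0.31 (FDR = 0.00122). In FoxK2 KD cells those of Cebpa at −0.48 (FDR = 0.0279) and Onecut2 at 0.27 (FDR = 0.00509) passed. The part of GC content in the uncorrected differences was not tested beyond this correction.

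**Figure D5:**
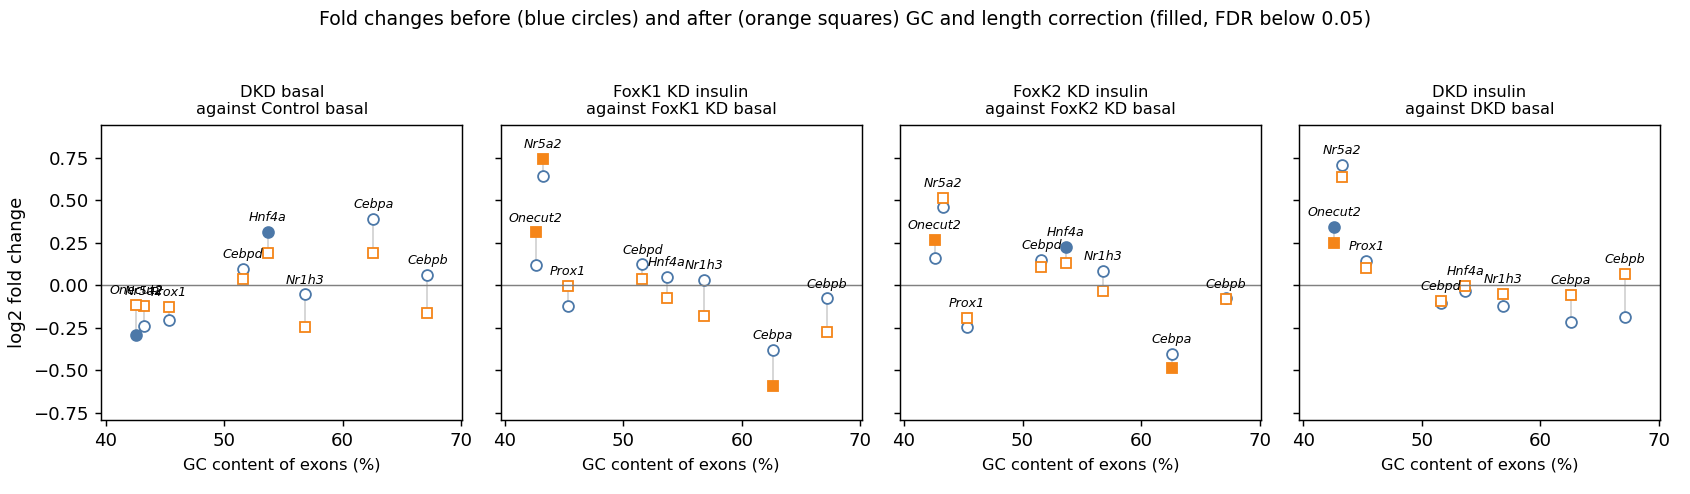
Log2 fold difference of each member before and after the correction for GC content and length, plotted against exon GC content in percent, in DKD basal against Control basal and in the insulin comparisons of the 3 knockdowns. Hnf4a in DKD basal moves from 0.31 to 0.19 and Onecut2 from −0.29 to −0.12, and Cebpa in FoxK1 KD insulin from −0.38 to −0.59.

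Other transcription factors of the hepatocyte network, 22 of 28 listed tested, were called in 9 cases with insulin averaged over genotypes, beside 53.3% of all genes. Of these 4 rose and 5 fell, or 6 and 6 without Control basal replicate 1, with a median of −0.03 beside 0.00 over all genes. Xbp1, a regulator of the unfolded protein response, rose by 0.78 (SE 0.05, FDR = 1.07e-14) and Atf5 by 0.96 (SE 0.08, FDR = 1.11e-12), while the pioneer factor Foxa1 fell by 0.38 (SE 0.07, FDR = 2e-05).

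Basal FoxK1 KD raised 2 of the 22 and lowered 2. Basal counts of this and the following lists stand beside 8.09% of all genes called in FoxK1 KD, 0.378% in FoxK2 KD and 21.1% in DKD. The bile acid receptor gene Nr1h4 was at 25.2 ± 2.77 CPM against 18.3 ± 1.23 in Control (0.46, FDR = 0.0146) and Foxa1 at 24.7 ± 1.96 against 18.5 ± 1.60 (0.41, FDR = 0.0285). Atf5 was lower by a fitted −0.58 (FDR = 0.0178) and Foxa3 by −0.53 (FDR = 0.0426). Without Control basal replicate 1 the count was 1 raised and 0 lowered. DKD raised 1, Nr1h4 (0.40, FDR = 0.0188), and lowered 1. Without that library it raised 3 and lowered 2. FoxK2 KD called 0 of the 22.

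Partners and regulators of the C/EBP proteins, 6 of 9 tested, rose with insulin in 4 cases and fell in 2 on average over genotypes (53.3% of all genes called), with a median of 0.31. Nfil3, a basic leucine zipper repressor, rose by 0.82 (SE 0.07, FDR = 1.06e-11) and Atf4, which can pair with C/EBP proteins, by 0.63 (SE 0.06, FDR = 1.92e-11). Cebpg, a C/EBP without an activation domain, fell by 0.14 (FDR = 0.00405) and the ubiquitin ligase gene Cop1 fell by 0.18 (FDR = 0.00769). In the basal state FoxK1 KD lowered 1, Atf4 (−0.42, FDR = 0.0155), and DKD lowered 1, Cebpg (−0.27, FDR = 0.0148), and both counts were 0 without Control basal replicate 1.

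Cofactors of nuclear receptors, all 13 listed tested, fell in 3 cases and rose in 1 with insulin on average (53.3% of all genes called), with a median of −0.11, and 7 fell without Control basal replicate 1. The coactivator Ncoa2 fell by 0.27 (FDR = 3.35e-05) and the corepressor Ncor1 by 0.18 (FDR = 0.00143). The coactivator Ppargc1b rose by 0.78 (SE 0.22, FDR = 0.00308), on only 255 counts summed over the 30 samples. In DKD basal cells 3 were lower, among them the deacetylase Hdac3 (−0.35, FDR = 0.00486) and the acetyltransferase Ep300 (−0.40, FDR = 0.00787), and 5 without Control basal replicate 1.

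Genes often described as targets of the members were counted as lists, whether or not the factors bind them in these cells. Of 26 HNF4A-type targets 9 could be tested, and DKD basal cells had 1 higher, Ambp, at 32.0 ± 2.01 CPM against 19.2 ± 2.99 (0.74, SE 0.14, FDR = 0.000371), and 0 lower, or 1 and 1 without Control basal replicate 1, with a list median of 0.10. FoxK1 KD basal cells had 1 lower, the transthyretin gene Ttr (−0.81, FDR = 0.0262), and 0 without Control basal replicate 1. With insulin averaged over genotypes 3 rose and 3 fell (53.3% of all genes called). Ttr rose by 0.40 (FDR = 0.00418) and the pyruvate kinase gene Pklr by 0.35 (FDR = 1.46e-06). Tat, for tyrosine aminotransferase, fell by 1.14 (SE 0.16, FDR = 3.67e-07), on only 313 counts summed over the 30 samples.

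Of 26 C/EBP-type targets 9 were tested. Tat, described above as falling with insulin averaged over genotypes, was also among them. Counts of this list for that average and for FoxK1 KD basal cells are not given here. Complement C3 was at 617 ± 77.4 CPM in FoxK2 KD and 636 ± 74.4 in DKD basal cells against 314 ± 72.5 in Control, differences of 0.97 (FDR = 0.000938) and 1.02 (FDR = 1.55e-05). Lcn2, the iron-sequestering lipocalin, was at 42.5 ± 5.32 and 57.2 ± 9.11 against 20.6 ± 9.87 CPM (1.05, FDR = 0.0213, and 1.47, FDR = 1.19e-05). FoxK2 KD thus had 3 higher and 0 lower, with a list median of 0.91, and 1 higher (C3, 1.01, FDR = 0.00214) without FoxK2 KD basal replicate 2, the library with most Alb. DKD had 3 higher and 2 lower (3 and 3 without Control basal replicate 1), the chemokine gene Ccl2 at −0.99 (FDR = 1.96e-07) and the ceruloplasmin gene Cp at −0.28 (FDR = 0.0197). With insulin, DKD differed from Control by 1.28 for Saa3 (FDR = 0.000614) and 0.96 for C3 (FDR = 0.0018), 2 higher and 0 lower (1.21% of all genes called).

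LXR-type targets, 11 of 19 tested with Nr1h3 itself among them, rose in 6 cases and fell in 2 with insulin on average (53.3% of all genes called), with a median of 0.22. The lipogenic genes Scd1 and Fasn rose by 0.72 (SE 0.04, FDR = 6.79e-17) and 0.66 (SE 0.05, FDR = 1.04e-13). FoxK1 KD basal cells had 1 higher, the cholesterol efflux gene Abca1 (0.98, FDR = 0.0116), and 3 lower, with Scd1 at −0.88 (SE 0.08, FDR = 1.08e-09) and Lpcat3 at −0.38 (FDR = 0.00522), and 0 higher and 2 lower without Control basal replicate 1. DKD basal cells had Pltp higher (1.14, FDR = 1.01e-05) and Scd1 lower (−0.81, FDR = 5.49e-09), 2 higher and 1 lower without Control basal replicate 1, whereas Nr1h3 differed by −0.05.

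LRH-1-type targets, 7 of 17 tested, rose in 5 cases and fell in 1 with insulin on average (53.3% of all genes called). The cyclin gene Ccne1 rose by 1.40 (SE 0.10, FDR = 9.52e-14). Plk3 rose by 1.17 (SE 0.20, FDR = 6.16e-06), on only 304 counts summed over the 30 samples. Another cyclin gene, Ccnd1, was the 1 list gene higher in each basal knockdown (2 were higher in DKD without Control basal replicate 1), at 663 ± 15.4, 529 ± 16.5 and 693 ± 41.6 CPM in FoxK1 KD, FoxK2 KD and DKD cells against 414 ± 55.5 in Control. Its differences were 0.68 (FDR = 2.78e-07), 0.35 (FDR = 0.0254) and 0.74 (FDR = 1.82e-08), and the FoxK2 KD call was lost without Control basal replicate 1 or FoxK2 KD basal replicate 2. Among genes linked to ONECUT and PROX1 factors, 5 of 9 tested, 2 rose and 1 fell with insulin on average (53.3% of all genes called). Spp1, for osteopontin, rose by 0.51 (SE 0.06, FDR = 2.25e-08), and Sox9, a biliary factor, was lower in FoxK1 KD (−0.40, FDR = 0.0025) and DKD (−0.45, FDR = 0.000214) basal cells.

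Likeness of expression over the 30 samples was computed for each member as Pearson's r of log2 CPM. Hnf4a was most like Ptprf (0.86), St3gal1 (0.85) and Piezo1 (0.83), and Onecut2 most like Cpeb4 (0.85), Son (0.84) and Tia1 (0.83). Cebpd was nearest to Kctd11 (0.80), Arf3 (0.79) and Pxn (0.78), Cebpb to Pex5 (0.78), Nudt3 (0.72) and Relb (0.70), and Cebpa to Parn (0.75), Tlr2 (0.75) and Slc25a26 (0.74). Nr1h3 was nearest to Gm15564 (0.79), Map3k10 (0.77) and Llgl1 (0.76), Nr5a2 to Dock8 (0.76), Map3k1 (0.76) and Slc11a2 (0.75), and Prox1 to Tmtc3 (0.77), Atrx (0.77) and Nbeal1 (0.76). Between members, Cebpa and Onecut2 had the most negative r, −0.77 over the 30 samples and −0.69 after group means were taken out, and Prox1 and Onecut2 had 0.52 and 0.61. Both genes of a pair were read from the same 30 libraries and so share each library's depth and base composition, and Cebpa and Onecut2 lie near opposite ends of the members' GC content, so the values are descriptions.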

How the data were processed

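RNA from AML12 cells was sequenced by the authors on an Illumina HiSeq instrument from NEBNext libraries, and the deposited counts are whole-number read counts per gene, not normalised. The submitters' processing notes name CASAVA 1.8, STAR 2.4.2a, featureCounts and GRCm38.p4, while the annotation release and strand setting are not given in the sources used here. Identifiers were matched to GENCODE M21 (48435 of 49089). Samples were grouped by the labels into 8 groups of 3 or 4. Counts were tested with edgeR 4.0.16 (R 4.3.3) in 1 model of the 8 groups over all 30 samples: filterByExpr by group left 11368 genes, with TMM normalisation, quasi-likelihood F tests and Benjamini-Hochberg adjustment over all genes of a comparison, called at FDR below 0.05. The study's own threshold was FDR below 0.25, with a fold above 1.5 where insulin was tested, and was tried as an alternative. CPM values use TMM library sizes, and ± is an SD. The deposited counts of replicates were compared in 42 pairs, and the closest pair had a chi-square of 1.75 per degree of freedom, so none was counted as a copy.

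The members, lists and tests were chosen with earlier results of these data known, and 4 averaged comparisons were added after seeing them. All 8 members are named everywhere. Of each other list the counts in each direction are given for some of the comparisons, with up to 2 called genes of smallest FDR per direction. For each member the 3 genes of highest correlation are given. Alternatives were RLE normalisation, DESeq2 1.42.0, limma-voom (limma 3.58.1), 2 other filters, only the groups compared, the replicate number as a block, taking out of every sample its trend on GC content and length (5 spline degrees of freedom), and leaving out each library. The fit was tested on simulated data. Figures were drawn with matplotlib 3.10.9. Sequences on chromosome 18 and the values of some listed genes are not reported here.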

Additional observations from a re-analysis of the deposited data

Results flagged for a closer look

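In 48 groups of 4 samples, 1 sample lay apart from the other 3 by Dixon's test on 2 occasions, and chance gives about 1 in 20 groups. Nr5a2 in FoxK2 KD basal replicate 2 was at 4.71 CPM against 7.69 to 8.03 in the other replicates, and the same library had the highest Alb of the 30 samples, at 65.2 CPM. Prox1 in FoxK2 KD insulin replicate 3 was at 29.4 CPM against 34.0 to 34.9 in the other replicates.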

How the results depend on the processing

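Members called out of 8 are given here. With limma-voom and RLE normalisation, all 104 planned member tests kept their side of the threshold and so did the 99 for which DESeq2 gave a value. At the study's threshold the counts were 5 in FoxK1 KD basal, 0 in Control insulin, 1 in FoxK1 KD insulin, 0 in FoxK2 KD insulin, 1 in FoxK1 KD and 1 in DKD against Control with insulin, and 0, 5, 1 and 4 for the averages over genotypes (insulin) and over states (FoxK1 KD, FoxK2 KD, DKD). Keeping every gene with 1 count gave 1 in FoxK2 KD basal, where Cebpd passed at −0.50 (FDR = 0.00965), 0 in FoxK2 KD insulin and 3 in the FoxK1 KD average. Control insulin then had Cebpd in place of Hnf4a. Requiring 10 counts in every sample gave 1 in FoxK1 KD insulin and 2 in DKD insulin, by Nr5a2. The GC and length correction gave 0 in DKD basal, 0 in Control insulin, 3 in FoxK1 KD insulin, 2 in FoxK2 KD insulin, 1 in FoxK1 KD against Control with insulin, 2 in the FoxK1 KD average and 0 in the DKD average, and turned the sign of 19 of the 104 differences, none of them called. Fitting only the groups compared gave 0 in FoxK1 KD basal, 0 in DKD basal, 0 in Control insulin and 1 in FoxK1 KD insulin. Apart from the correction and the smaller fits, the cause was not tested.

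Samples with the same replicate number did not deviate together on average (mean r −0.013 over 99 pairs, 0.0043 over 294 other pairs, and 3 of 30 samples correlated best with their own number). Single pairs ran from −0.21 to 0.20, and an average over all genes cannot show whether some samples were paired. With the replicate block Control insulin had 2 members called, Cebpa being added at −0.60 (FDR = 0.0459). The replicate block with the GC and length correction gave 0 in DKD basal, 0 in Control insulin, 3 in FoxK1 KD insulin, 2 in FoxK2 KD insulin, 1 in FoxK1 KD against Control with insulin, 2 in the FoxK1 KD average and 0 in the DKD average.

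Leaving out each library in turn gave 0 to 3 in FoxK1 KD basal, 0 in FoxK2 KD basal, 1 to 3 in DKD basal, 0 to 2 in Control insulin, 0 to 1 in FoxK1 KD insulin, 0 to 1 in FoxK2 KD insulin, 0 to 2 in DKD insulin, and 0 in the knockdowns against Control with insulin and in the differences of insulin effects. The averages gave 4 to 5 for insulin, 1 to 2 for FoxK1 KD, 0 to 1 for FoxK2 KD and 1 to 3 for DKD. Counts over all genes moved most in FoxK2 KD basal (43, against 238 with every gene of 1 count, 107 with the correction, 81 with block and correction, 71 with DESeq2 and 1 with only the groups compared), in FoxK1 KD basal (920 against 46 with only the groups compared and 408 without Control basal replicate 1), in DKD basal (2398 against 1299) and in Control insulin (2890 against 1085). With every gene of 1 count, FoxK2 KD against Control with insulin had 14 genes (3 otherwise), the differences of insulin effects 174, 31 and 359 (0, 0 and 175) and the FoxK2 KD average 150 (54). The correction gave 103 in that average and 116 in the DKD difference of insulin effects, or 107 with the block. DESeq2 called 11 in the FoxK1 KD difference of insulin effects. With only the groups compared, DKD against Control with insulin had 40 (138), the DKD difference of insulin effects 32, and the FoxK1 KD, FoxK2 KD and DKD averages 691 (1228), 18 and 1211 (1955). Depth limits Nr5a2 and Cebpa most, at 11 to 47 and 18 to 70 counts per sample.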
